A study of Mus musculus with 9 samples.

Results

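The interferon-induced transmembrane (IFITM) genes encode small membrane proteins that share the CD225 domain. They are induced by type I and type II interferons and hinder the entry of enveloped viruses by altering the membranes with which the virus must fuse. IFITM1 acts mainly at the cell surface, where it was first described as a leukocyte antigen associated with tetraspanins, whereas IFITM2 and IFITM3 act mainly in endosomes. Several members are also transcribed without added interferon in stem and progenitor cells, and Ifitm1 and Ifitm3 are long-known markers of early germ cells. The 5 members were chosen by symbol: Ifitm1, Ifitm2, Ifitm3, Ifitm6 and Ifitm10 each matched 1 of 35275 gene rows, of which 18658 held at least 1 count. They were selected on earlier results of these libraries, so their own differences between groups are given as a description, without p-values.

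Counts per gene came from bulk RNA-seq of mouse bone marrow megakaryocyte-erythrocyte progenitors (MEPs, Lin-ckit+CD34-FcγRII/IIIlo), the bipotent precursors of platelets and red cells, with 25000 sorted cells per condition. HS3A8 is a single-chain antibody fragment (scFv) against a heparan sulfate epitope. HS3A8-high MEPs were the 50% with the strongest binding, HS3A8-low MEPs the 50% with the weakest, and MPB49 control MEPs were stained with an scFv that does not bind heparan sulfate and therefore stand for total MEPs. Each of the 3 groups had 3 libraries. No genotype, treatment, strain or age is given in the labels. The study used mice of 6 to 12 weeks, matched for age and sex, with C57Bl/6 wild-type and congenic or GFP-transgenic lines named without saying which supplied these MEPs, and its legend gives 3 individual mice. All groups are bulk populations, in which fewer cells of a type and less RNA per cell cannot be told apart.

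Totals ranged from 11781637 to 15850037 counts per library, and levels are given as CPM, the counts scaled to a common effective library total. On that scale 3 counts corresponded to 0.176 to 0.27 CPM. All 13 erythroid markers had counts in every library. They summed to 14186.2 to 15300.6 CPM in HS3A8-high libraries, 11005.7 to 12582.7 in HS3A8-low libraries and 12679.7 to 14157.3 in controls, without overlap. MPB49 control replicate 1 stood apart from the other 2 controls. The chi-square of its counts, divided by the degrees of freedom, was 150 and 196 against them and 9.61 between them. Replicate 3 of both HS3A8 fractions carried granulocyte-monocyte transcripts: 13 of 14 markers were higher in these 2 libraries than in any of the other 7.

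Ifitm1, Ifitm2, Ifitm3 and Ifitm6 lie together on mouse chromosome 7 (GRCm38, GENCODE M21). Ifitm2 spans 140954837 to 140955987 on the minus strand, Ifitm1 spans 140967221 to 140969825 on the plus strand, Ifitm3 spans 141009586 to 141010770 on the minus strand and Ifitm6 spans 141015699 to 141017924 on the minus strand. Ifitm10, a less studied relative, lies outside the cluster, from 142325837 to 142373753 on the minus strand. The coding sequences of Ifitm1, Ifitm2 and Ifitm3 were 80.8% to 81.9% identical to each other over the aligned bases, whereas Ifitm6 matched these 3 at 64.6% to 68.8% and Ifitm10 at 65.9% to 69.6%. Ifitm1 has the shortest of these coding sequences, with 106 codons against 144 in Ifitm2, 137 in Ifitm3, 124 in Ifitm6 and 201 in Ifitm10.

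The sequence next to the starts that were searched differed within the cluster. The interferon-stimulated response element is a DNA motif found near many interferon-induced genes, and its core was searched on both strands as GAAA, any 2 bases, GAAA. Of 32851 RefSeq promoters of GRCm38.p6, each running from 250 bases before to 50 after the start, 3.44% held this core, as did 45.8% of 48 promoters of a list of interferon-stimulated genes. The Ifitm3 promoter held it at 2 positions, 2 and 19 bases from the start, and the Ifitm2 promoter at 1 position, 46 bases before the start (offset -46). The promoters of Ifitm1, Ifitm6 and Ifitm10 held none within these windows. The Ifitm1 and Ifitm6 windows lie at starts inside the annotated gene spans. The sequence next to the outermost annotated starts of these genes was not searched, unlike that of Ifitm2 and Ifitm3. The stretches outside the annotated exons of the 3 well-expressed members are shown because the results turn on these genes, with each core in capitals, 5′ to 3′ on the gene's strand.
Ifitm1 (chr7:140967826-140968027, plus strand): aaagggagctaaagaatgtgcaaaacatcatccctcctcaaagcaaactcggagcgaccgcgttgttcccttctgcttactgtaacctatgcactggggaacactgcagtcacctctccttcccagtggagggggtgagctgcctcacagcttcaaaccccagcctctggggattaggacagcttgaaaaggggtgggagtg
Ifitm2 (chr7:140955988-140956211, minus strand): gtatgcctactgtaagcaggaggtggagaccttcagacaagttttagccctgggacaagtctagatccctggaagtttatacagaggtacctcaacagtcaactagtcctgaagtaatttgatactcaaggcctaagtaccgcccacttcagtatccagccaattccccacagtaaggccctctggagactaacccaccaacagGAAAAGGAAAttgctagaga
Ifitm3 (chr7:141010771-141010994, minus strand): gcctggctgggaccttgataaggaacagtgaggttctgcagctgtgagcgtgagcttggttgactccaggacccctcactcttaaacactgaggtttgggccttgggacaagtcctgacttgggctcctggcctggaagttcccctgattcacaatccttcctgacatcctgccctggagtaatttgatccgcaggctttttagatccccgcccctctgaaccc
Ifitm3 cores (chr7:141010714-141010743, minus strand): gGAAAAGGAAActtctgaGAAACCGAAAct
Over the whole promoter windows, Ifitm2 and Ifitm3 were 70.7% identical in the aligned bases. Ifitm1 was 60.0% identical to Ifitm2 and 55.9% to Ifitm3, within the 52.6% to 61.4% seen for pairs that include Ifitm6 or Ifitm10. A match of these letters is a description and was not tested as a binding site.

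Ifitm1 was the member whose level followed HS3A8 binding most steeply. In HS3A8-high MEPs it had 2.73, 3.65 and 4.24 CPM (44, 48 and 64 counts) in replicates 1 to 3. In HS3A8-low MEPs it had 40.1, 72.9 and 45.1 CPM (682, 1014 and 531 counts). In the MPB49 control it had 23.6, 30.3 and 27.2 CPM (262, 474 and 371 counts). The 3 groups did not overlap, with every control library between the highest HS3A8-high and the lowest HS3A8-low library. The means were 3.54 ± 0.76, 52.7 ± 17.7 and 27.0 ± 3.33 CPM (SD, n = 3 each). The control mean was 0.96 of the midpoint of the fractions, 28.1 CPM.

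**Figure D1:**
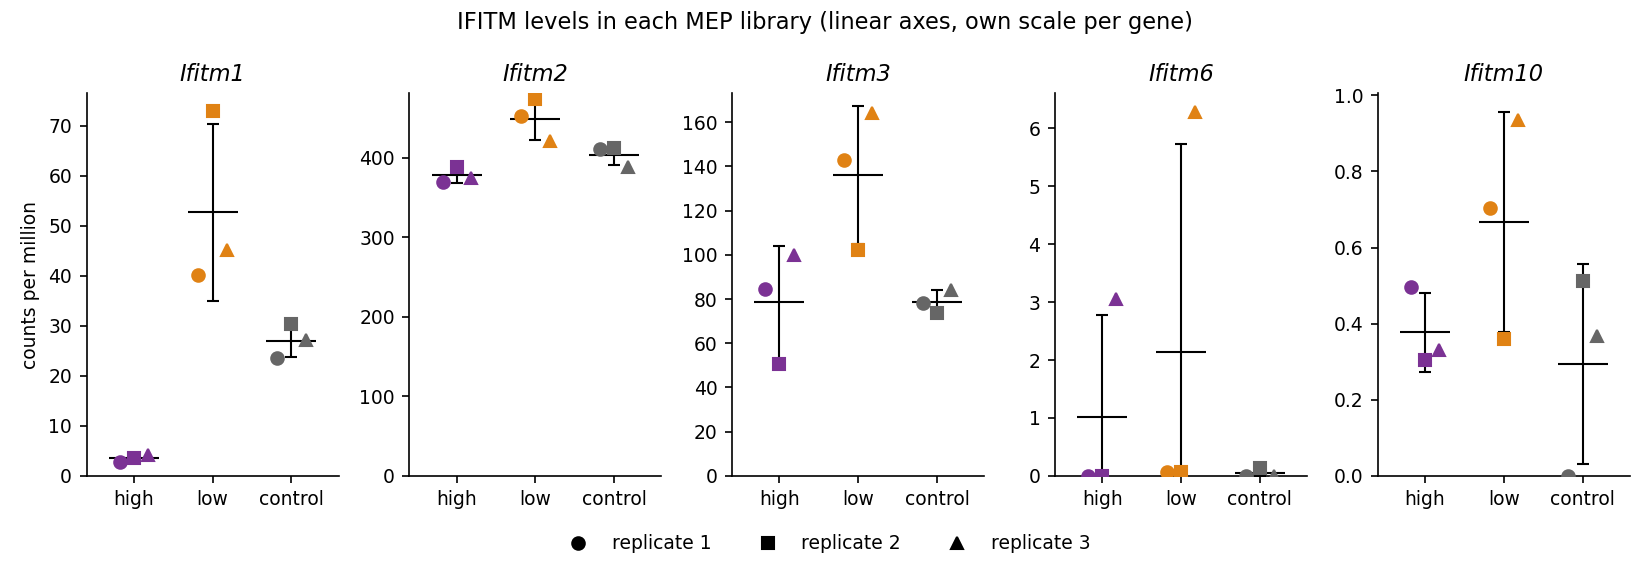
Level of each IFITM gene in CPM (linear vertical axes starting at 0, own scale per gene) in HS3A8-high, HS3A8-low and MPB49 control MEPs. Points are libraries, shaped by replicate number, and bars are mean ± SD of n = 3, drawn no lower than 0. The Ifitm1 libraries sit at 2.73 to 4.24 CPM in HS3A8-high, 23.6 to 30.3 in the control and 40.1 to 72.9 in HS3A8-low.

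Between the fractions, the fitted level of Ifitm1 was 14.9-fold lower in HS3A8-high than in HS3A8-low MEPs, with a log2 difference of -3.90 (SE 0.294). The log2 difference was -3.87, -4.32 and -3.41 within replicate numbers 1, 2 and 3, and -3.87 (SE 0.205) with the number as a block, also called. In this comparison 451 of 11791 genes tested (3.82%) passed an adjusted p of 0.05 in edgeR's quasi-likelihood test, and 379 (3.21%) were higher in HS3A8-low. Of the 5 members, 3 passed the filter on low counts and were tested. Ifitm1 was called, and Ifitm2 and Ifitm3 were not. The replicate block and DESeq2 each called all 3, in fits that called 1367 and 1305 of all genes. The groups did not overlap for all 3 tested members, against 27.6% of all genes tested. The Ifitm1 call was lost without HS3A8-low replicate 2, at a log2 difference of -3.58, and edgeR then called no gene at all. Without replicate 3 of both fractions, the granulocyte-monocyte-rich libraries, the difference was -4.13 and the call remained.

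Against the control, Ifitm1 was 7.66-fold lower in HS3A8-high MEPs, with a log2 difference of -2.94 (SE 0.246). It was 1 of 2 genes called among 11486 tested (0.0174%), the other being Ctla2a, a cathepsin inhibitor gene that was named after its call was seen. DESeq2 called 138 genes here, and 562 had an unadjusted p under 0.05. The call was lost without each single library other than MPB49 control replicate 1, the control that stood apart. Without that control the log2 difference was -3.02 and the call remained. In HS3A8-low MEPs Ifitm1 was 1.9-fold above the control, with a log2 difference of 0.92 (SE 0.251), and was not called. That comparison called 0 of 11878 genes (0.0%) by edgeR, 94 by DESeq2 and 673 at an unadjusted p under 0.05. Both comparisons use the same 3 control libraries.

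Marker lists of 7 other cell types were on balance lower in HS3A8-high than in HS3A8-low, as Ifitm1 was. The erythroid list was mixed, with 7 of 13 log2 differences above 0 and 6 below. Its median was 0.22, with 1 called, higher in HS3A8-high, and 4 called with the replicate block. The 12 megakaryocyte markers summed to 43.4 to 65.1 CPM in HS3A8-high libraries, 216 to 439 CPM in HS3A8-low libraries and 156 to 251 CPM in the controls, and of 10 tested between the fractions 5 were called and 8 with the block, all lower in HS3A8-high. In that fraction Ppbp, Itgb3 and Gp1bb, all platelet genes, were at 0 in 1 or more libraries, and Gp6 was at 0 in 7 of the 9 libraries, of all 3 groups. The 8 T and NK cell markers summed to 3.8 to 30.8, 107 to 131 and 36 to 69 CPM in the same order of groups, with 1 of 6 tested called, and Cd4 was at 0 in 7 of the 9 libraries. The 9 endothelial and stromal markers summed to 10.9 to 15.3, 51.4 to 80.8 and 26.7 to 35.9 CPM, with 3 of 4 tested called and 4 with the block, and Cdh5, which defines endothelium, had no count in any library. Of the stem and multipotent progenitor markers, 9 were tested, with a median of -2.87, 2 called and 5 with the block, although their sums overlapped at 524 to 819, 551 to 860 and 490 to 826 CPM. Procr was at 0 in all HS3A8-high libraries. The B cell markers summed to 1.37 to 5.24, 10.1 to 13.8 and 4.15 to 9.99 CPM, with 2 tested, none called and 1 with the block, and Pax5 at 0 in all 9 libraries. The basophil and mast cell markers summed to 1.62 to 81.1, 22.9 to 169 and 10.2 to 25.1 CPM. The 81.1 and 169 CPM were replicate 3 of HS3A8-high and HS3A8-low, whose other replicates held at most 2.51 and 28.5 CPM. Of these markers 4 were tested, with a median of -2.38, none called and 1 with the block. Prss34 was at 0 in 5 libraries. All 11 tested granulocyte-monocyte markers were below 0 (median -1.44), none called and 6 with the block. At an unadjusted p under 0.05 in edgeR, these last 3 lists held 1, 3 and 0 genes. The part of these cell types in the Ifitm1 difference was not tested. The genes whose log2 CPM was most like that of Ifitm1 over the 9 libraries, among 9347 genes compared, were Mfge8 (Pearson r = 0.987), which encodes a secreted protein that bridges dying cells to phagocytes, Ypel3 (r = 0.979) and Tmem176a (r = 0.976). Mfge8 had means of 7.26, 31.2 and 18.9 CPM in the high fraction, the low fraction and the control, and Tmem176a had 2.27, 14.6 and 8.13 CPM. These values describe 9 libraries that share 3 groups.

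Ifitm2, the most abundant member, differed little. Replicates 1 to 3 had 369, 389 and 374 CPM in HS3A8-high MEPs, 452, 474 and 421 CPM in HS3A8-low MEPs and 411, 412 and 389 CPM in control MEPs. Every HS3A8-low library lay above every control. The controls lay above the HS3A8-high libraries, although the highest of the latter and the lowest control both round to 389 CPM. The means were 378 ± 10.2, 449 ± 26.5 and 404 ± 12.7 CPM (SD, n = 3 each), and the control stood at 0.977 of the midpoint of 414 CPM. The fitted difference between HS3A8-high and HS3A8-low was -0.26 on the log2 scale (SE 0.0722), a 1.2-fold difference. Same-numbered libraries of these 2 fractions deviated together, although no label gives a shared mouse or sort. With the number as a block Ifitm2 was called at the same -0.26 (SE 0.0602), in a fit that called 1367 genes (11.6%). Against the control the log2 differences were -0.10 (SE 0.122) for HS3A8-high and 0.11 (SE 0.14) for HS3A8-low, each smaller than its standard error.

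Part of the Ifitm2 signal cannot be assigned to this gene with certainty. Of its annotated 100-base exon stretches, 34.9% also occur in other genes. The genes that share stretches of 50 bases or more with Ifitm2 are Ifitm3, processed pseudogenes with 0 to 2 counts in these libraries where they were counted, and Gm45717, which overlaps 40.9% of the Ifitm2 exons and is not in the count table. Ifitm1 and Ifitm3 shared none of their 100-base stretches with another gene, and 53 of 1056 and 63 of 629 of their 50-base stretches. The genes most like Ifitm2 across the 9 libraries were Tcp11l2 (r = 0.972), Nrgn (r = 0.967), which encodes the calmodulin-binding protein neurogranin, and Marcksl1 (r = 0.951). Nrgn had means of 11.3, 37.9 and 20.4 CPM in the high fraction, the low fraction and the control. A high r does not mean a change of the same size.

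Ifitm3, the member with the strongest known activity against viruses that enter through endosomes, was also lower in HS3A8-high than in HS3A8-low MEPs. Replicates 1 to 3 had 84.4, 50.6 and 100 CPM in HS3A8-high MEPs, 143, 102 and 164 CPM in HS3A8-low MEPs and 78.4, 73.7 and 84.0 CPM in control MEPs. The fractions were separated by the step from 100 to 102 CPM, replicate 2 was the lowest and replicate 3, the granulocyte-monocyte-rich library, the highest of each, and the controls lay inside the HS3A8-high range. Without replicate 3 of both fractions the log2 difference was -0.85. The part of such cells in the Ifitm3 level was not tested. The means were 78.5 ± 25.5, 136 ± 31.2 and 78.7 ± 5.2 CPM (SD, n = 3 each). The control was therefore at 0.734 of the midpoint of the fractions, 107 CPM, and next to HS3A8-high. Ifitm3 was 1.75-fold lower in HS3A8-high than in HS3A8-low MEPs, with a log2 difference of -0.81 (SE 0.282). Within replicate numbers 1 to 3 that difference was -0.77, -1.02 and -0.70, and with the number as a block it was -0.83 (SE 0.0888) and called.

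Against the control, Ifitm3 differed by -0.01 for HS3A8-high (SE 0.251) and by 0.76 for HS3A8-low (SE 0.206) on the log2 scale, and neither was called. The first is far smaller than its error and took both signs among the alternative settings. The HS3A8-low libraries all lay above the control libraries, which was so for 12.1% of all genes tested in that comparison, in either direction. For HS3A8-high against the control the share of genes without overlap was 14.0%, and it held Ifitm1 and Ifitm2 and not Ifitm3. The genes most like Ifitm3 were Tnfrsf1b (r = 0.956), a receptor for tumour necrosis factor, Spice1 (r = 0.951), a centriole gene, and Sp100 (r = 0.935), a nuclear body gene that is itself interferon-induced. Tnfrsf1b had means of 17.9, 30.1 and 15.8 CPM in the high fraction, the low fraction and the control. Between members, r over the 9 libraries was 0.851 for Ifitm1 with Ifitm2, 0.528 for Ifitm1 with Ifitm3 and 0.469 for Ifitm2 with Ifitm3. Ifitm3 with Ifitm6, a gene counted almost entirely in 2 libraries, gave 0.597.

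**Figure D2:**
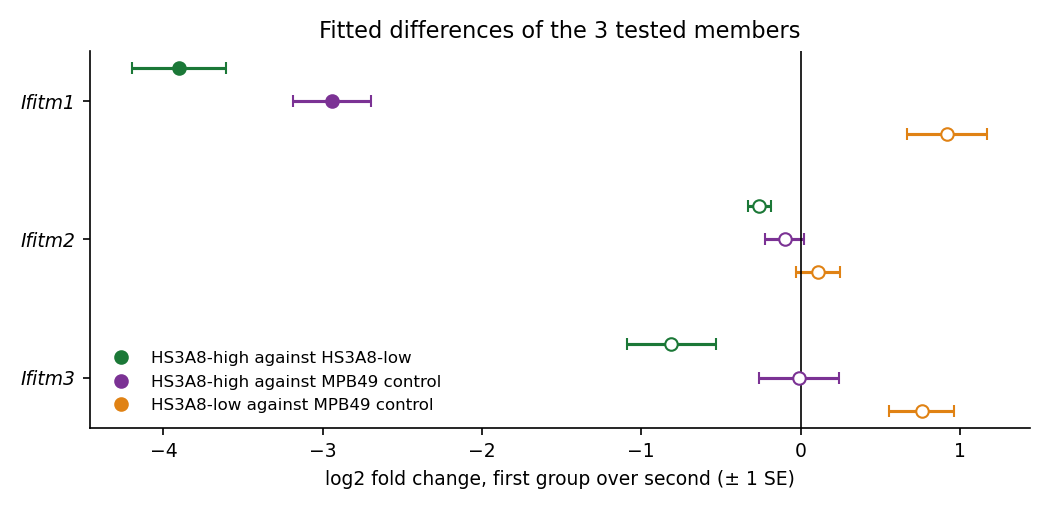
Fitted log2 fold change (horizontal axis, ± 1 SE) of Ifitm1, Ifitm2 and Ifitm3 in the 3 comparisons. Filled points passed an adjusted p of 0.05 and open points did not. Ifitm1 lies at -3.90 and -2.94 in the comparisons of HS3A8-high, and Ifitm3 lies near 0 for HS3A8-high against the control but at 0.76 for HS3A8-low.

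Ifitm6 is transcribed mainly in myeloid cells, and its counts came from 2 libraries. HS3A8-high replicates 1 to 3 had 0, 0 and 46 counts, HS3A8-low replicates had 1, 1 and 74 counts and the controls had 0, 2 and 0 counts. The replicate 3 libraries held 3.05 CPM (HS3A8-high) and 6.29 CPM (HS3A8-low), and the other 7 held at most 0.128. The groups overlapped, and Ifitm6 did not pass the filter on low counts in any comparison. The granulocyte-monocyte markers summed to 1945.5 and 5022.7 CPM in these libraries, against 10.9 to 271 CPM in the other 7 libraries. Mpo, the neutrophil granule peroxidase, had 714 and 1626.4 CPM in these 2 libraries and 2.51 to 137 CPM elsewhere, whereas Ly6g, a marker of mature neutrophils, had no count in 8 libraries and 0.255 CPM in the HS3A8-low one. The part of such cells in the Ifitm6 counts was not tested. The genes most like Ifitm6 were Hp, which encodes haptoglobin (r = 0.984), Chil3 (r = 0.976) and the monocyte antigen gene Ly6c2 (r = 0.974), a pattern that rests on 2 libraries.

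Ifitm10 was close to the detection limit everywhere. The HS3A8-high libraries had 8, 4 and 5 counts, the HS3A8-low libraries 12, 5 and 11 and the controls 0, 8 and 5. The groups overlapped, with means of 0.377 ± 0.104, 0.667 ± 0.29 and 0.293 ± 0.263 CPM (SD, n = 3 each), and the gene did not pass the filter. A difference in Ifitm10 was not detectable at this depth.

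Per kilobase of exon, which allows levels of different genes to be set side by side, Ifitm2 led in all groups, with means of 576 ± 15.6, 686 ± 40.4 and 617 ± 19.4 CPM per kb (SD, n = 3) for HS3A8-high, HS3A8-low and control. Ifitm3 came next with 116 ± 37.5, 201 ± 46.1 and 116 ± 7.66 CPM per kb. Ifitm1 followed with 3.24 ± 0.694, 48.2 ± 16.2 and 24.7 ± 3.05 CPM per kb. Ifitm6 and Ifitm10 had means of at most 2.36 and 0.139 CPM per kb. Ifitm2, Ifitm3 and Ifitm1 did not overlap within any group. Ifitm1 and Ifitm6 overlapped in HS3A8-high, and Ifitm6 and Ifitm10 overlapped in all groups. With the length of the longest transcript the means of Ifitm1 were 4.01, 59.8 and 30.6 CPM per kb, and its place in the order was the same.

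The make-up of the family's transcripts therefore differed between the fractions. Ifitm1 made up 0.599% to 0.879% of the counts of the 5 genes in HS3A8-high libraries, 6.3% to 11.2% in HS3A8-low libraries and 4.59% to 5.86% in controls. Ifitm2 made up 77.6% to 87.7%, 66.1% to 73.0% and 77.7% to 80.1%. Ifitm3 made up 11.4% to 20.8%, 15.8% to 25.7% and 14.3% to 16.8%, with overlapping groups. Per kilobase, Ifitm3 exceeded Ifitm1 by 22.4 to 49.8 times in HS3A8-high libraries and by 2.26 to 5.85 times in the other 6. These ratios are within libraries and do not depend on the scaling between them.

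**Figure D3:**
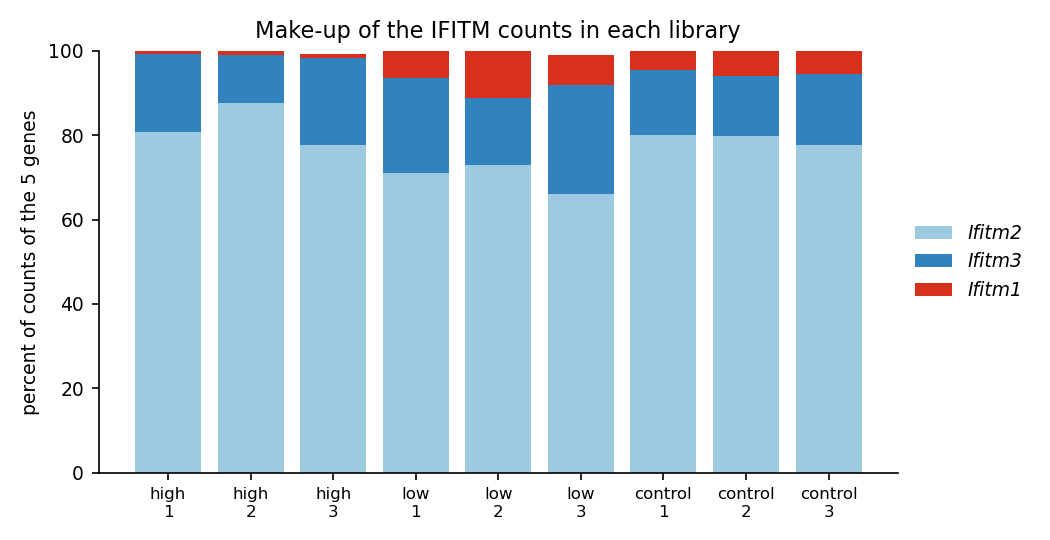
Share of the counts of the 5 IFITM genes that fell to Ifitm2, Ifitm3 and Ifitm1 in each of the 9 libraries (vertical axis in percent, the small remainder being Ifitm6 and Ifitm10). The Ifitm1 band is 0.599% to 0.879% in the HS3A8-high libraries and 4.59% to 11.2% in the others.

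Genes of the interferon pathway were then set beside the family. Of 54 interferon-stimulated genes tested between HS3A8-high and HS3A8-low, 2 were called (3.7%, against 3.82% of all genes), both lower in HS3A8-high, and 10 with the replicate number as a block (against 11.6% of all genes in that fit), all lower in HS3A8-high. The fractions did not overlap for 16 of the 54, against 27.6% of all genes. The median log2 difference of the list was -0.35, against -0.029 over all genes tested, and 47 of the 54 were below 0. The called genes encode immunoproteasome subunits. Psmb8 had 46.4 to 55.3 CPM in HS3A8-high libraries and 85.2 to 89.8 CPM in HS3A8-low libraries, a log2 difference of -0.80 (SE 0.104, adjusted p = 0.0181 in edgeR's quasi-likelihood test). Psmb9 differed by -0.66 (SE 0.108, adjusted p = 0.0294 in the same test). MPB49 control replicate 1 had 98.8 CPM of Psmb8 and 135 CPM of Psmb9, above all other libraries.

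None of the 4 most abundant interferon-stimulated genes of the list was called. Lgals9, a galectin, had means of 1256 ± 39.4 and 1034 ± 100 CPM in the high and low fractions, a log2 difference of 0.27 (SE 0.0865). Ly6e, which like the IFITM genes acts on virus entry, differed by -0.06 (SE 0.117), Lgals3bp by 0.14 (SE 0.0843) and the peptide transporter gene Tap1 by -0.35 (SE 0.138). Lgals9 and Lgals3bp were higher in every HS3A8-high library than in any HS3A8-low library, Tap1 was lower (135 to 146 against 148 to 208 CPM) and Ly6e overlapped. Among the genes called with the block and not without it were Ifi203 (-2.22, SE 0.516), the RNA sensor gene Ddx58 (-1.30, SE 0.368), Oasl2 (-1.01, SE 0.388) and Sp100 (-0.55, SE 0.173), all lower in every HS3A8-high library. Ifi27l2a, Rtp4, Zbp1 and Samd9l were also called only with the block, and for each of them the fractions overlapped. The values in brackets are from the fit without the block. All of these genes were named after the values were seen. The calls of Psmb8 and Psmb9 were both lost without any 1 of replicates 1 and 2 of either fraction. Without replicate 3 of either fraction alone, or with all 9 libraries in 1 fit, 1 gene of the list was called.

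**Figure D4:**
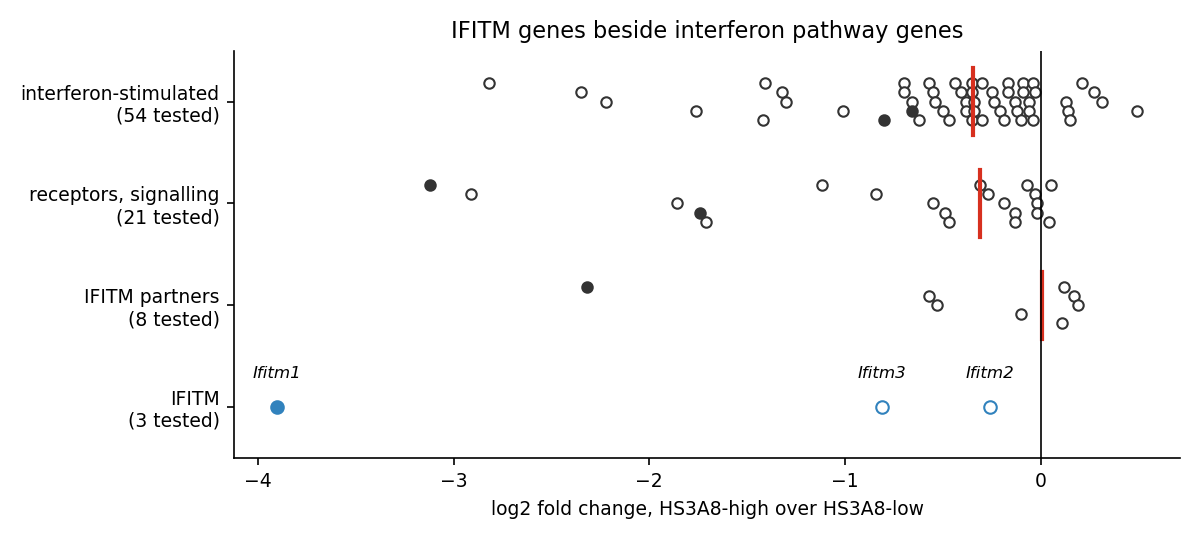
Log2 fold change between HS3A8-high and HS3A8-low MEPs (horizontal axis) of interferon-stimulated genes, interferon receptor and signalling genes, genes of IFITM partners and the 3 tested IFITM members. Filled points passed an adjusted p of 0.05, and red bars are list medians at -0.35, -0.31 and 0.01. Ifitm1 at -3.90 lies below all points of the lists.

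Among 21 receptor and signalling genes, all of them tested, 2 were called between the fractions (9.52%), both lower in HS3A8-high, and 5 with the block (against 3.82% and 11.6% of all genes). The median was -0.31, against -0.029 over all genes, and 19 of 21 were below 0. Irf5, Irf8 and Irf9 were called with the block and not without it. Irf8 had 5.22, 2.36 and 74.0 CPM in HS3A8-high replicates 1 to 3 and 45.6, 43.4 and 206 CPM in HS3A8-low replicates. Irf5 had 1.06, 0.304 and 17.2 CPM and 6.93, 10.9 and 42.6 CPM in the same order. Both peaked in replicate 3 of each fraction, the granulocyte-monocyte-rich library, and their fractions overlapped. Those of Irf9 did not. The part of such cells in these calls was not tested. Irf1, a transcription factor that drives many interferon-responsive genes, had 11.2, 5.70 and 8.88 CPM in HS3A8-high libraries and 32.3, 26.8 and 26.5 CPM in HS3A8-low libraries, with a log2 difference of -1.74 (SE 0.278, adjusted p = 0.0282 by edgeR). Its control libraries had 47.4, 14.7 and 16.0 CPM, of which replicate 1 lay above all others. Socs1, a feedback inhibitor of JAK kinases, had 4, 7 and 3 counts in HS3A8-high libraries and 45, 57 and 21 in HS3A8-low libraries, with a log2 difference of -3.12 (SE 0.561, adjusted p = 0.0354 by edgeR).

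The most abundant genes of this list encode a receptor chain and the receptor-bound kinases. Ifngr1, a chain of the interferon gamma receptor, differed by -0.03 (SE 0.0981), Jak1 by -0.07 (SE 0.099), Jak2 by 0.05 (SE 0.249) and Tyk2 by 0.04 (SE 0.122) on the log2 scale, and none was called. The calls of Irf1 and Socs1 were lost without any 1 of replicates 1 and 2 of either fraction. Neither interferon list had a called gene in either comparison with the control, where the medians were -0.15 and -0.07 for HS3A8-high and 0.09 and 0.24 for HS3A8-low. At an unadjusted p under 0.05 these comparisons held 2 and 2 genes for HS3A8-high and 6 and 3 for HS3A8-low, and DESeq2 called 2 signalling genes for HS3A8-low.

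Genes of proteins known to bind or modify IFITM proteins gave 1 call of 8 tested between the fractions (12.5%, against 3.82% of all genes). It was Cd9, a tetraspanin and a platelet surface protein, with 7.70, 6.61 and 9.21 CPM in HS3A8-high libraries, 47.1, 35.1 and 34.3 CPM in HS3A8-low libraries and 37.5, 21.8 and 17.9 CPM in controls. Its log2 difference between the fractions was -2.32 (SE 0.216, adjusted p = 0.00712 by edgeR), and the call was lost without HS3A8-low replicate 2. Cd81, the tetraspanin with which IFITM1 was first described, differed by 0.17 (SE 0.0874), the ubiquitin ligase gene Nedd4 by 0.19 (SE 0.155), Vapa by 0.11 (SE 0.0981) and the protease gene Zmpste24 by 0.12 (SE 0.0964), and none was called. Zdhhc20, one of the enzymes that attach palmitate to IFITM3, differed by -0.53 (SE 0.127) without the block, and the kinase gene Fyn by -0.57 (SE 0.188). Both were called with the block and not without it. The block called 3 of the 8, against 11.6% of all genes in that fit. Of 9 other genes of the CD225 group, 6 had a count and Tmem91 alone passed the filter, at -0.75 (SE 0.405) and not called.

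The genes around the cluster were also compared. Within 100 kb on either side, 15 genes other than the members are annotated and in the count table. Of these, 9 were tested between the fractions and 3 were called, against 3.82% of all genes. All 3 were lower in HS3A8-high, and the block also called 3. Sirt3, a mitochondrial deacetylase gene, differed by -0.82 (SE 0.145), Pkp3, a desmosome gene, by -1.22 (SE 0.251) and Sigirr, an inhibitory receptor of the interleukin-1 family, by -1.18 (SE 0.17). The median of the 9 was -0.44, against -0.029 over all genes tested, and Psmd13 differed by 0.08 (SE 0.116). Pgghg, the tested gene nearest to Ifitm2, differed by -0.24 (SE 0.18) and was not called. The 3 calls were lost without any 1 of replicates 1 and 2 of either fraction. At most 1 neighbour was called without replicate 3 of either fraction alone, and 1 without replicate 3 of both. Ifitm5, the bone-specific member of the cluster, had 29 counts over the 9 libraries and was not tested.

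**Figure D5:**
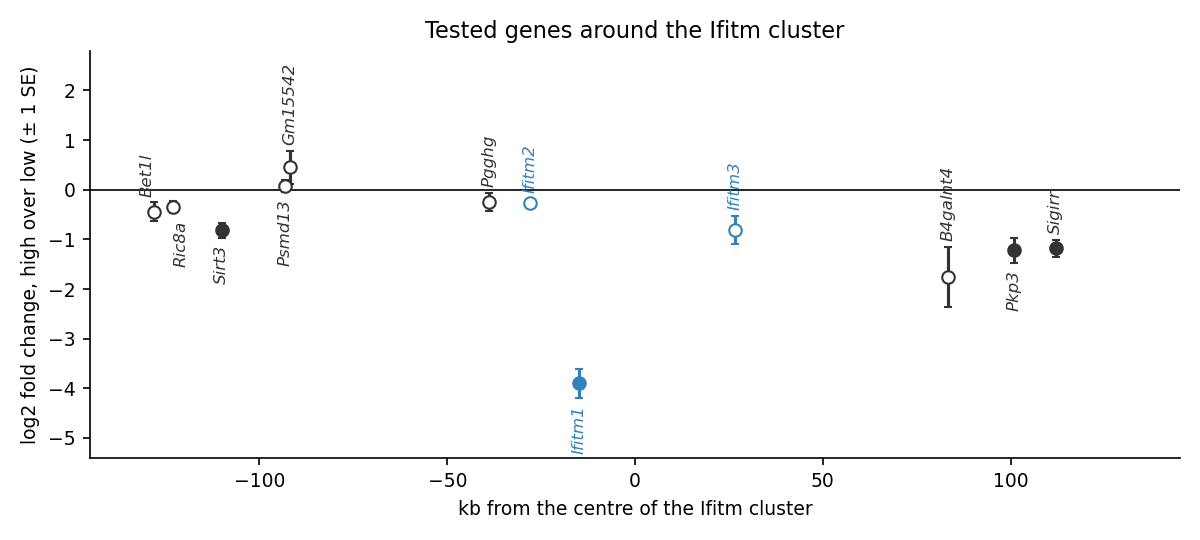
Log2 fold change between HS3A8-high and HS3A8-low MEPs (vertical axis, ± 1 SE) of tested genes against the distance of the gene from the centre of the Ifitm cluster in kb (horizontal axis). IFITM members are blue, and filled points passed an adjusted p of 0.05. Ifitm1 at -3.90 lies below its neighbours, which range from -1.76 to 0.45.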

How the data were processed

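The authors deposited raw counts per gene for 9 libraries. Per the submitters' processing notes, STAR 2.5 and HTSeq 0.6.1 were used with mm10. The annotation release, read length and strand setting are not given in the sources used here. Symbols were taken from GENCODE M21 for 34490 of 35275 identifiers. Each pair of groups was fitted alone with edgeR 4.0.16 (R 4.3.3; TMM, filterByExpr, quasi-likelihood test, Benjamini-Hochberg adjustment over all genes tested, threshold 0.05), without a block. The scripts were tested on simulated data. CPM used TMM factors over the 9 libraries, and log2 CPM for likeness used a prior count of 2 over genes at 5 CPM or more on average. Alternatives were DESeq2 1.42.0 or its size factors, the longest transcript as length, filters of none or of 10 counts on average, a joint fit of the 9 libraries, the replicate block and each library left out. Leaving out replicate 3 of both groups was chosen after seeing the data. Deviations from the group means correlated between same-numbered HS3A8-high and HS3A8-low libraries at 0.346 to 0.518 and between others at -0.483 to 0.114, so the block is given beside results of these fractions that it moved. Pairs with the control did not correlate this way. Members and gene lists were chosen with earlier results of these data known. Named genes were all members and the 3 genes most like each member that averaged 1 CPM or more. Of each interferon or partner list, the 4 most abundant and up to 3 called genes were also named. The cluster's neighbours, single markers, Ctla2a, Ifi203, Ddx58, Oasl2, Sp100, Ifi27l2a, Rtp4, Zbp1, Samd9l, Irf5, Irf8, Irf9, Zdhhc20 and Fyn were named after their values were seen. P-values set a group difference against the spread between the 3 libraries of each group, an estimate that borrows from all genes tested. Promoter sequences are from RefSeq, GRCm38.p6. Protein sequences were not used here.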

Additional observations from a re-analysis of the deposited data

How the results depend on the processing

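Ifitm1, Ifitm2 and Ifitm3 kept the direction of their differences under all 13 alternatives in each comparison, except Ifitm3 in HS3A8-high against the control. With 1 library left out it ranged from -0.22 to 0.22, and it was 0.02 without a filter, 0.22 without HS3A8-high replicate 2, 0.04 without control replicate 3 and 0.0 after rounding without control replicate 1. Between the fractions, DESeq2 and the replicate block each called 3 members, and 0 to 1 were called with 1 library left out. Against the control, the replicate block and the fit without replicate 3 of both groups called 0 members in HS3A8-high, and leaving out 1 library gave 0 to 1. Of all genes, between the fractions DESeq2 called 1305, the replicate block 1367, the fit without replicate 3 of both 748, and fits without 1 library 0 to 439. For HS3A8-high against the control DESeq2 called 138, no filter 9, all libraries in 1 fit 32, the replicate block and the fit without replicate 3 of both 0, and fits without 1 library 0 to 5. For HS3A8-low against the control DESeq2 called 94 genes, 2 of them interferon signalling genes. Between the fractions the interferon-stimulated list had 4 calls by DESeq2, 1 with all libraries, 10 with the block and 0 to 1 without 1 library. The signalling list had 4, 1, 5 and 0 to 2, and 6 without replicate 3 of both. Partner genes had 2 calls by DESeq2, 3 with the block and 0 to 1 without 1 library, and 1 by DESeq2 for HS3A8-high against the control. The neighbours had 1 call with all libraries, 1 without replicate 3 of both and 0 to 1 without 1 library. Why the settings differed was not tested. The block for pairs with the control, whose same-numbered libraries did not deviate together, changed no call other than those named. At 0 to 74 counts per library, Ifitm6 and Ifitm10 passed the filter in some alternatives and were called in none.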
